A study of Mus musculus with 35 samples.

Results

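Epiblast stem cells (EpiSC) are pluripotent cells that resemble the mouse epiblast after implantation. Of the 35 samples of the series, the 6 compared here were bulk mRNA libraries of such cells, chosen by their culture label. Lines taken from the embryo and grown as 3D structures (embryo-derived 3D EpiSC, 3 libraries) were set against conventional flat cultures (2D EpiSC, 3 libraries). Both groups were labelled wild-type. The embryo-derived 3D EpiSC came from epiblasts isolated at embryonic day 5.5 and were grown inside Matrigel in FAXN medium. FAXN holds bFgf2, Activin-A at a higher concentration than in the 2D medium, the BMP antagonist Noggin and XAV939. XAV939 is a tankyrase inhibitor that reduces Wnt signalling. By their label, the 2D EpiSC were made by converting embryonic stem cells (ESC) with bFgf2 and Activin-A, and they were kept as a monolayer on fibronectin without XAV939 or Noggin in another basal medium. Neither the labels nor the methods say whether the 3 libraries of a group came from separate lines or separate cultures, so the p-values measure the spread between libraries, which may be technical. The origin of the cells, their genetic background, the medium, the substrate and the dimension of the culture changed together between the groups and cannot be told apart. A further group, ESC-derived 3D EpiSC (3 libraries), shared the ESC origin of the 2D EpiSC and the medium and Matrigel of the embryo-derived cells, so its values are given beside the others.

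The epiblast is a polarised epithelium that lies on a basement membrane and gives rise to the germ layers at gastrulation. EpiSC capture its primed state of pluripotency and depend on FGF and Activin/Nodal signalling. A second system that matters below is the integrated stress response, in which phosphorylation of the initiation factor eIF2 lowers general translation while favouring that of the transcription factor Atf4. Atf4 and its partners act on genes for amino acid synthesis, amino acid uptake and tRNA charging. Genes of the actin cytoskeleton and its attachments are in turn known targets of the factors Srf and Yap, which respond to the mechanical state of a cell.

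Both groups carried the markers of primed epiblast cells. The pluripotency factor Pou5f1 stood at 1702, 1871 and 1904 TPM, a length-corrected share of all transcripts in a library, in embryo-derived 3D EpiSC and 1393, 1355 and 1511 TPM in 2D EpiSC, where values are given in the order of replicates 1, 2 and 3 here and below. Fgf5, a ligand switched on after implantation, was at 338, 344 and 359.6 TPM and 424, 402 and 435 TPM. The core factor Sox2 was at 99.5, 108 and 103 TPM and 87.5, 85.7 and 79.1 TPM. All 3 genes were thus well expressed in every library. The epithelial cadherin Cdh1 was also present in all 6 libraries, at 390.2, 341 and 348 TPM in the embryo-derived cells and 546, 520.3 and 504 TPM in 2D EpiSC. Markers of other cells were examined as well. The visceral endoderm genes Afp and Ttr were listed at 0 in all 3 embryo-derived libraries. In 2D EpiSC, Afp was listed at 0 throughout and Ttr at 0, 0.26 and 0 TPM. The 14 genes of that marker list summed to 70.9, 127 and 139 TPM in the embryo-derived cells against 569, 554 and 352 TPM in 2D EpiSC. The summed level of 15 fibroblast markers was 53, 54.4 and 53.5 TPM in the embryo-derived cells and 112, 111 and 114 TPM in 2D EpiSC. For 15 trophoblast and extraembryonic ectoderm markers the sums were 148, 83.8 and 82.9 TPM and 100.4, 98.6 and 89 TPM. Fewer cells of a type and less RNA per cell cannot be told apart in bulk samples. The deposited values are TPM without counts, so the depth of each library is unknown. Within each group a pair of libraries was almost identical. Replicates 2 and 3 of the embryo-derived 3D EpiSC had a median absolute difference of 0.061 on the log2(TPM + 1) scale, against 0.171 and 0.173 for replicate 1 with either of them. For 2D EpiSC, replicates 1 and 2 differed by 0.073, and replicate 3 from them by 0.143 and 0.137. Where averaging each such pair to 1 library moved a count below, the averaged count is given beside it.

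A gene was tested if any 3 of the 6 libraries exceeded 2 TPM, which left 12534 of 50225 autosomal genes for limma on log2(TPM + 1). It was called higher or lower where the log2 fold change exceeded 1 in size and the p-value, adjusted over all genes tested by the Benjamini-Hochberg method, was under 0.05. By this rule 280 genes (2.23%) were higher in embryo-derived 3D EpiSC and 969 (7.73%) were lower, so that 9.96% were called either way. The filter admits genes that were above its limit in 1 group only. This held for 351 of the lower genes, which exceeded 2 TPM in the 3 2D libraries alone, and for 36 of the higher genes, which exceeded it in the 3 embryo-derived libraries alone. The other calls numbered 244 higher and 618 lower. With the near-identical pairs averaged, 239 genes were higher and 883 lower. Values without 1 library keep the set of genes tested, a choice made after seeing the data. Where the filter was instead recomputed on the remaining 5 libraries, the 351 genes could not be tested without a 2D library and the number of lower genes was 561 to 605, so counts obtained that way are given for lists with 3 or more calls in a direction where they differ by more than 1.5 times. For 57.7% of the tested genes, the 3 libraries of one group lay wholly above those of the other, which is the background for any statement below that groups did not overlap. Among protein-coding genes, 118 of 10986 were higher and 840 lower. The median log2 fold change over all tested genes was -0.06. Fold changes are differences on the log2(TPM + 1) scale throughout, positive where the embryo-derived cells were higher, with the standard error (SE) from the same fit, and they understate the change of genes with low TPM.

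**Figure D1:**
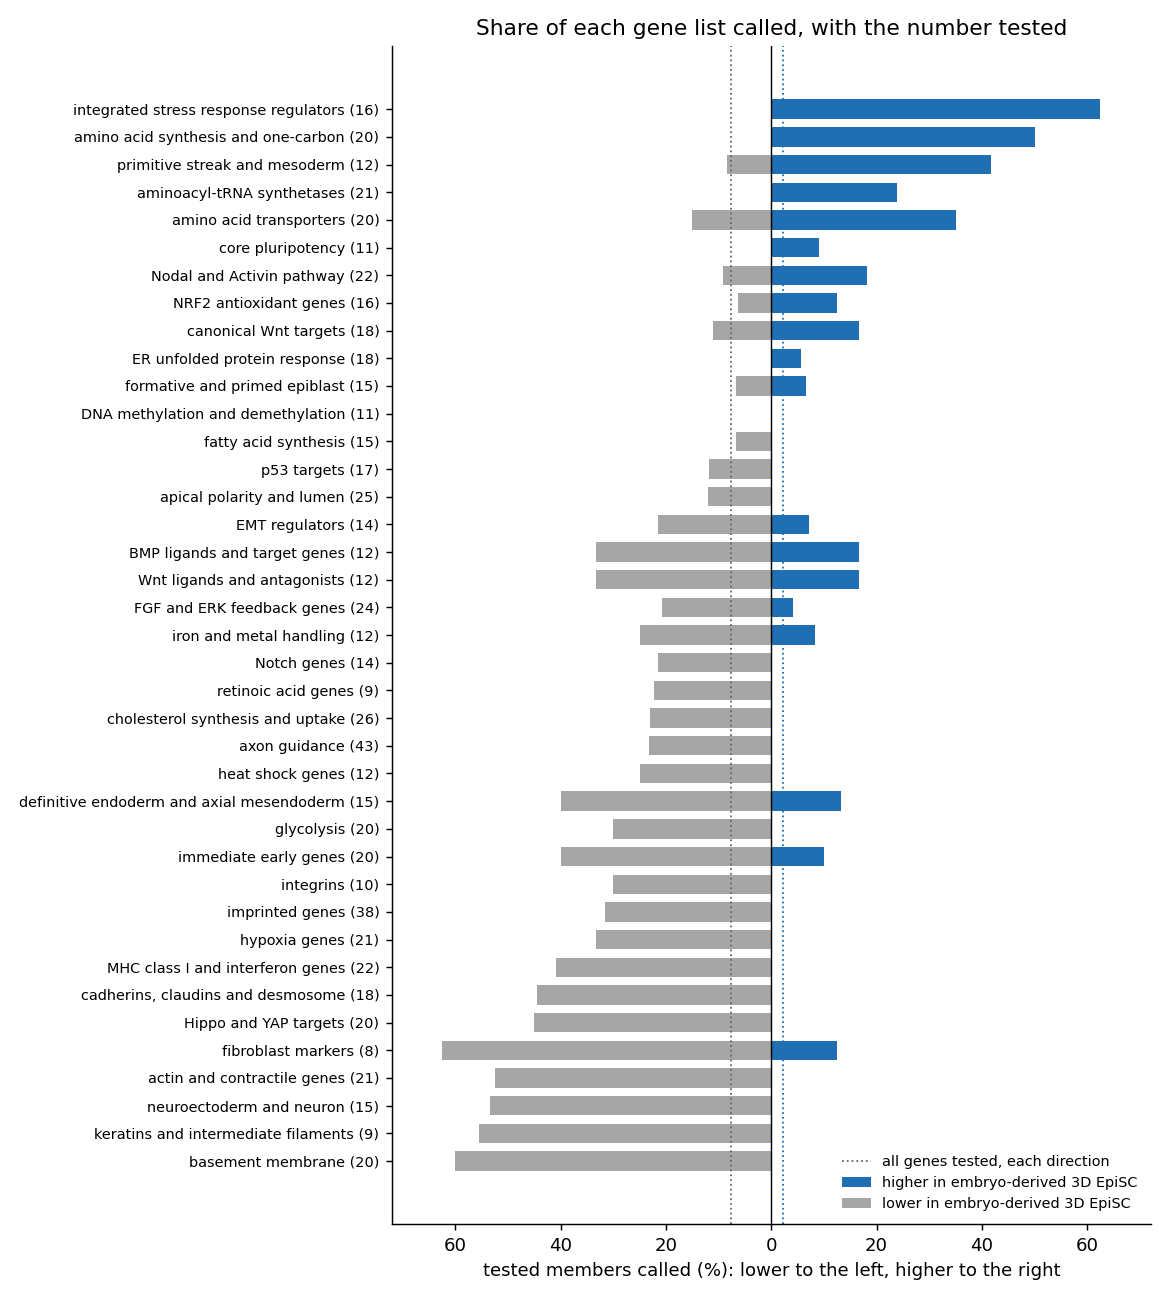
Percentage of the tested members of each gene list that were called higher (blue, to the right) or lower (grey, to the left) in embryo-derived 3D EpiSC than in 2D EpiSC. The number tested is in brackets, lists with fewer than 8 tested members are left out, and the dotted lines mark the 2.23% higher and 7.73% lower among all genes tested. Stress-response and amino acid lists extend mainly to the right, and the matrix, contractile, keratin and junction lists extend only to the left.

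Many of the largest increases lay in the integrated stress response. Of 16 tested regulators and direct outputs of this response, 10 were higher, none was lower and the median log2 fold change was 1.12. Chac1, an enzyme that degrades glutathione, was at 97.3, 121 and 114 TPM in embryo-derived 3D EpiSC and at 3.4, 3.02 and 5.33 TPM in 2D EpiSC, a log2 fold change of 4.53 (SE 0.51, adjusted p = 6.96e-05). Trib3, a pseudokinase induced by Atf4, stood at 66.7, 180.5 and 180.2 TPM against 8.88, 9.68 and 11.1 TPM (log2 fold change 3.59, SE 0.45, adjusted p = 1.67e-04). The stress-induced factor Atf3 was at 30.8, 29.8 and 28.9 TPM in the embryo-derived cells and 4.8, 4.31 and 8.04 TPM in 2D EpiSC, with an adjusted p of 4.52e-05. All embryo-derived libraries were thus above all 2D libraries for these 3 genes, and for Trib3 replicate 1 was well below replicates 2 and 3. Atf4 itself, the central factor, rose at the RNA level from 248, 249.5 and 301 TPM in 2D EpiSC to 502, 619.7 and 608 TPM (log2 fold change 1.11, SE 0.16, adjusted p = 3.54e-04). The remaining called members were Atf5, Cebpb, Stc2, Cars, Sesn2 and Eif4ebp1, with log2 fold changes between 1.05 and 2.59.

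Replicate 1 of the embryo-derived 3D EpiSC lay below the other 2 for most of these genes. The Atf4-related factor Atf5 was at 36.5, 373 and 375 TPM in the embryo-derived libraries and 32.9, 31.6 and 21 TPM in 2D EpiSC, so that the increase rested on replicates 2 and 3 (adjusted p = 0.0146, 0.127 with near-identical pairs averaged, and 0.0519 to 0.064 without replicate 2 or 3 of the embryo-derived cells or replicate 3 of the 2D EpiSC). Cebpb, a partner of Atf4, showed the same division at 6.66, 28.7 and 28.4 TPM against 3.1, 3.54 and 4.05 TPM in 2D EpiSC (adjusted p = 0.00322, 0.0535 with the pairs averaged). Ddit3, also called Chop and linked to prolonged stress, was at 8.12, 22.6 and 21.9 TPM and 7.46, 7.11 and 9.48 TPM and was not called (adjusted p = 0.157). The feedback phosphatase subunit Ppp1r15a, at 32.6, 48.4 and 50.5 TPM and 34.9, 33.9 and 37.6 TPM, was not called either. With the pairs averaged, 6 of the 16 regulators were called, and 7 to 12 were called when any 1 library was left out. Sesn2 and Eif4ebp1 dropped below a fold change of 1 without replicate 2 or 3 of the embryo-derived cells (0.99 for Sesn2 in either case, 0.91 and 0.92 for Eif4ebp1). Mef2b, a transcription factor outside these lists and the third largest increase among protein-coding genes whose groups did not overlap, was at 24.6, 86 and 83.8 TPM against 4.82, 3.81 and 5.3 TPM (log2 fold change 3.35, SE 0.59, adjusted p = 0.00142).

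Amino acid genes followed the same direction. Of 20 tested genes for amino acid synthesis and one-carbon metabolism, 10 were higher and none was lower, with a median of 1.09. Pck2, the mitochondrial phosphoenolpyruvate carboxykinase, rose from 31.9, 26.2 and 32.6 TPM in 2D EpiSC to 127, 242 and 231 TPM (log2 fold change 2.64, SE 0.36, adjusted p = 2.64e-04). The last enzyme of serine synthesis, Psph, rose from 24.7, 23 and 35.2 TPM to 67.5, 195 and 196 TPM (log2 fold change 2.30, SE 0.44, adjusted p = 0.00257). Shmt2 and Mthfd2, which carry one-carbon units from serine into the mitochondrial folate cycle, had log2 fold changes of 1.80 (SE 0.27) and 1.92 (SE 0.25). The alanine transaminase Gpt2 and the serine synthesis enzyme Psat1 also rose, by 1.93 and 1.66 on the log2 scale. Asparagine synthetase Asns, a classic output of amino acid shortage, was at 241, 634 and 625 TPM against 124, 127 and 149 TPM in 2D EpiSC (log2 fold change 1.78, adjusted p = 0.00905). Its increase, like that of Pycr1, Aldh18a1 and Bcat1, was no longer called with the pairs averaged, which left 6 of the 10 and gave Asns an adjusted p of 0.102. Pycr1 also lost its call without any 1 library other than replicate 1 of the embryo-derived cells (adjusted p = 0.0685 to 0.114). Phgdh, the first enzyme of serine synthesis, had a log2 fold change of 0.90 and stayed under the threshold. Cth, which makes cysteine, was not called at 45.3, 137 and 141 TPM and 93, 96.4 and 118 TPM.

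Uptake and tRNA charging were affected in part. Among 20 tested amino acid transporters, 7 were higher and 3 lower. The cystine importer Slc7a11 was at 2.69, 9.12 and 8.51 TPM in embryo-derived 3D EpiSC and 0.2, 0.183 and 0.0868 TPM in 2D EpiSC (log2 fold change 2.62, SE 0.31, adjusted p = 9.42e-05). Slc7a5, which imports large neutral amino acids, rose from 100.4, 96.9 and 128 TPM to 303, 504 and 498 TPM (adjusted p = 2.98e-04), and its partner subunit Slc3a2 had a log2 fold change of 1.30. The cationic transporter Slc7a1 and the neutral transporters Slc6a9, Slc1a4 and Slc1a5 made up the rest of the higher group. Slc7a1 (adjusted p = 0.0558) and Slc1a5 (log2 fold change 0.95) lost their calls with the pairs averaged, and Slc1a5 also without replicate 2 or 3 of the embryo-derived cells (0.91 and 0.98). In the other direction, Slc38a4 fell from 200.3, 202 and 231 TPM to 35.4, 28.6 and 27.4 TPM (log2 fold change -2.76, SE 0.15, adjusted p = 3.42e-07), and the taurine transporter Slc6a6 and Slc7a8 were also lower. Of 21 aminoacyl-tRNA synthetases, 5 were higher (Nars, Cars, Gars, Sars and Aars) with log2 fold changes between 1.00 and 1.27. This count was 8 without replicate 1 of the embryo-derived cells, 3 without replicate 2 or 3 of them or without replicate 1 or 2 of the 2D EpiSC, and 1 with the pairs averaged. Genes of the unfolded protein response of the endoplasmic reticulum behaved differently. Of 18 tested, only Herpud1 was called, at 51.3, 59.5 and 62.5 TPM against 16.6, 14.9 and 17.6 TPM in 2D EpiSC, and the median was -0.07. The chaperone Hspa5, the usual readout of this response, was at 519, 452 and 452 TPM in the embryo-derived cells and 529, 545 and 643 TPM in 2D EpiSC, and Xbp1 at 41.7, 35.9 and 37.9 TPM and 37.4, 36.6 and 45.4 TPM.

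**Figure D2:**
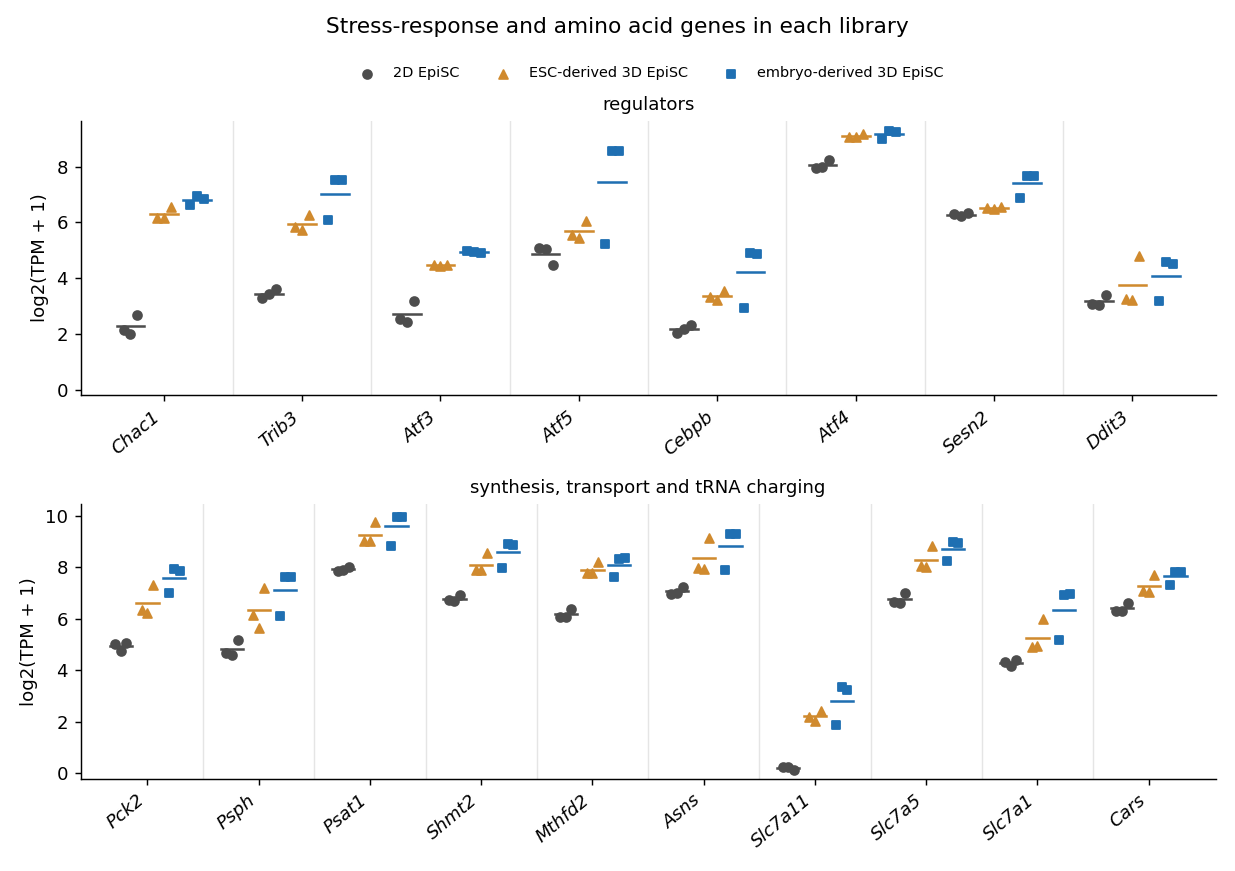
Expression, as log2(TPM + 1), of regulators of the integrated stress response (top) and of genes for amino acid synthesis, uptake and tRNA charging (bottom). Each symbol is 1 library and each bar the mean of 3, with replicates 1 to 3 from left to right; 2D EpiSC are grey circles, ESC-derived 3D EpiSC orange triangles and embryo-derived 3D EpiSC blue squares. Replicate 1 of the embryo-derived cells lies below replicates 2 and 3 for every gene drawn but Atf3, and above the 2D EpiSC for every gene drawn but Ddit3.

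In the ESC-derived 3D EpiSC, several of these genes were above the 2D level as well. Chac1 was at 70.7, 71 and 93.1 TPM and Atf4 at 529.7, 532 and 567 TPM in the ESC-derived 3D libraries, and their differences from the embryo-derived cells were not called (adjusted p = 0.487 and 0.734). Trib3 stood at 56.1, 51.4 and 76.8 TPM, Slc7a11 at 3.56, 3.1 and 4.36 TPM and Atf5 at 45.7, 42.6 and 64.5 TPM. These levels overlapped those of replicate 1 of the embryo-derived cells or lay beside them. For Sesn2, a leucine sensor induced by Atf4, the ESC-derived 3D level of 90.2, 87.6 and 93.5 TPM was nearer to the 2D level of 77.7, 73.5 and 79 TPM than to the 117, 200.3 and 202 TPM of the embryo-derived cells.

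Promoters of the higher genes are shown because a short sequence, the C/EBP-ATF response element to which Atf4 binds with C/EBP partners, is known in several of them. The motif TGATGNAA was searched on both strands in RefSeq promoters of mouse build GRCm38.p6, each running from 250 bases before to 50 bases after a transcription start. Among the 4 lists on the stress response, amino acid synthesis, transport and tRNA charging, 31 different members were called higher, and a promoter was given for 26 of them. Of these 26, 10 (38.5%) held the motif. It was present in 6 of 32 list members that were not called higher (18.8%), in 219 of 8814 tested genes with a promoter (2.48%) and in 3.97% of all 32851 promoters. The lists were drawn up from known targets of this pathway, and a match is a description of these letters only. The 4 called members with a match and the largest fold changes are printed 5′ to 3′ on the gene's own strand, with the motif, or its reverse complement, in capitals. Positions count from the transcription start. The Chac1 promoter (chr2:119350992-119351291, plus strand) holds the motif at -193 and that of Trib3 (chr2:152344011-152344310, minus strand) at 14. The Pck2 promoter (chr14:55540016-55540315, plus strand) holds it at -103 and that of Slc7a11 (chr3:50443564-50443863, minus strand) at -66 and -47.
Chac1: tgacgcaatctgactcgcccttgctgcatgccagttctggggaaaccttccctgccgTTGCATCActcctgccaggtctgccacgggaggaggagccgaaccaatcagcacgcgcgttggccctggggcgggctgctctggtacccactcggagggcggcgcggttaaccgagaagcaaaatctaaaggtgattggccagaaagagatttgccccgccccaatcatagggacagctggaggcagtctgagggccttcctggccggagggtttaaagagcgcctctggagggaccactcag
Trib3: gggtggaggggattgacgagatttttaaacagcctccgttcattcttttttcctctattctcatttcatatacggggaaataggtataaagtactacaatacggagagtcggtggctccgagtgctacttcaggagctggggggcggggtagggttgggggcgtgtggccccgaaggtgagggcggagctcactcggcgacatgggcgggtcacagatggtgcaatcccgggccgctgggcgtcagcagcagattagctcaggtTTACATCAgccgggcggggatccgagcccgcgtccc
Pck2: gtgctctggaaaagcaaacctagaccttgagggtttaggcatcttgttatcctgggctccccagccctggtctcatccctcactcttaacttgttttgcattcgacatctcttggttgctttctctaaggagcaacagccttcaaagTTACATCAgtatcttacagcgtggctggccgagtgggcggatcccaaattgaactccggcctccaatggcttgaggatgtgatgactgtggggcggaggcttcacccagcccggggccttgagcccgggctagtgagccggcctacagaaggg
Slc7a11: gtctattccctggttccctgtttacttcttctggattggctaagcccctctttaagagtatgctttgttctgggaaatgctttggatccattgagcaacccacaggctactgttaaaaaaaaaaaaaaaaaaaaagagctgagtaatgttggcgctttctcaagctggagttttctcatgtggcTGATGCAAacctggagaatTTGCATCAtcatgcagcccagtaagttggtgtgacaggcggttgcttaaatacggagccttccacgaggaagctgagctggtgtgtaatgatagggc
Slc7a11 thus carried the motif on both strands within a short stretch, and Trib3 carried it downstream of its start. Atf3, Asns, Pycr1, Slc1a4, Aars and Gars were the other called members with a match, while Psph, Psat1, Shmt2 and Mthfd2 had none in this window.

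Among the genes that were lower, those of the contractile cytoskeleton stood out. Of 21 tested actin and contractile genes, 11 were lower, none was higher and the median log2 fold change was -1.01. Tagln, an actin-bundling protein of contractile cells, was at 1.87, 1.51 and 1.78 TPM in embryo-derived 3D EpiSC and 69.7, 68.2 and 104 TPM in 2D EpiSC, a log2 fold change of -4.88 (SE 0.53, adjusted p = 5.53e-05). Smooth muscle actin, Acta2, was at 0.44, 1.26 and 1.12 TPM against 62, 62.9 and 26.2 TPM (log2 fold change -4.65, SE 0.35, adjusted p = 3.84e-06). Calponin 1, Cnn1, fell from 17.9, 19 and 29.9 TPM to 1.93, 1.78 and 1.68 TPM (log2 fold change -3.02, SE 0.17, adjusted p = 3.24e-07). For each of the 3, the groups were separated by a wide gap, although the 2D libraries varied among themselves, with Acta2 lowest and Tagln highest in replicate 3. Csrp1, Myl9, Acta1, tropomyosin Tpm1, Cnn2, the focal adhesion protein Vcl and Lima1 were also lower, with log2 fold changes from -2.47 to -1.01. Lima1 and Vcl lay near the fold threshold and lost their calls without 1 library: Lima1 without replicate 1 of the embryo-derived cells or replicate 1 or 2 of the 2D EpiSC (-0.94 to -0.86), and Vcl without replicate 3 of the 2D EpiSC (-0.91). Other members were not called. The non-muscle myosin Myh9 was at 194, 236 and 238 TPM against 209, 199 and 230.1 TPM. The focal adhesion protein Zyx was at 92.1, 96.9 and 96.2 TPM against 72.3, 66.1 and 71.2 TPM. Srf itself stood at 66.7, 57.4 and 54.7 TPM against 51.2, 47.3 and 61.3 TPM, with overlapping groups. The number of lower members was 10 or 11 without any 1 library and 11 with the pairs averaged. It was 6 without any 1 of the 2D libraries when the filter was recomputed.

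A CArG box, the site bound by Srf, was found on either strand in the promoters of 5 of the 9 lower contractile genes with a promoter given (55.6%). It was present in 1 of the 10 that were not lower (10.0%). Among all genes with a promoter, 18 of 624 called lower (2.88%) and 138 of 8814 tested (1.57%) held it. Of the lower contractile genes, Acta2, Cnn1, Csrp1 and Tpm1 had no match. The list holds known Srf targets, and a match is a description of these letters only. The 2 lower members with a match and the largest changes are shown, with the box in capitals. The Myl9 promoter (chr2:156775214-156775513, plus strand) holds it at -161 and the Acta1 promoter (chr8:123894726-123895025, minus strand) at -73.
Myl9: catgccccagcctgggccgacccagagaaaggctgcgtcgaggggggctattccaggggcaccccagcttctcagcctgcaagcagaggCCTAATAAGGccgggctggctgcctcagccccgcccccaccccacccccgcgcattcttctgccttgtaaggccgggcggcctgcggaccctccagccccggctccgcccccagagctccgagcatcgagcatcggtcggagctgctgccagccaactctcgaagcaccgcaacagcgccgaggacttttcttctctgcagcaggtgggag
Acta1: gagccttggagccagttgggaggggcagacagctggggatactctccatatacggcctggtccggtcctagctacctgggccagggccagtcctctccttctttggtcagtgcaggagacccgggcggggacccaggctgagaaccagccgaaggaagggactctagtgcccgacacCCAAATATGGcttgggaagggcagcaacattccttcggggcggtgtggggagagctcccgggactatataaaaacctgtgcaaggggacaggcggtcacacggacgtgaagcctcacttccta
Myl9, a regulatory myosin light chain, was at 4.42, 9.07 and 8.59 TPM in the embryo-derived cells and 22.7, 26.4 and 34.1 TPM in 2D EpiSC (adjusted p = 0.00513), and skeletal actin Acta1 was low in both groups at 1.33, 0.273 and 0.98 TPM and 4.75, 5.4 and 3.94 TPM.

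Targets of the Hippo pathway factors Yap and Taz were lower as well. None of the 20 tested was higher, 9 were lower (11 with the pairs averaged) and the median was -0.96. Gadd45b, a growth-arrest protein, was at 2.29, 1.15 and 1.19 TPM against 47.5, 46.6 and 55.5 TPM in 2D EpiSC (log2 fold change -4.35, SE 0.27, adjusted p = 7.87e-07). The matricellular proteins Ctgf and Cyr61, the standard Yap targets, had levels of 8.1, 9.96 and 8.71 TPM and 126, 92.6 and 89.8 TPM in the embryo-derived cells. Their 2D levels were 48.7, 46.5 and 74.1 TPM for Ctgf (log2 fold change -2.51, adjusted p = 8.49e-06) and 309, 299.5 and 322 TPM for Cyr61 (log2 fold change -1.60, adjusted p = 1.72e-04). Lats2, a Hippo kinase that Yap itself induces, was lower by the same test (log2 fold change -1.38), and so were Nuak2, Tgfb2, Ptpn14, Myof and F3. Amotl2 and Ajuba, also Hippo pathway members, were not called at log2 fold changes of -0.96 and -0.51. In the ESC-derived 3D EpiSC, Ctgf stood apart from Cyr61: Ctgf was at 35.8, 35.3 and 43.3 TPM, nearer to the 2D level, and Cyr61 at 117, 117 and 112 TPM, within or near the embryo-derived range. The difference in Ctgf between both 3D groups was called (log2 fold change -1.98, adjusted p = 1.37e-04).

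The basement membrane list had the largest share of lower genes among the lists with at least 10 tested members. Of 20 tested members, 12 were lower, none was higher and the median was -1.34. Fibronectin, Fn1, was at 13.3, 15 and 14.7 TPM in the embryo-derived 3D EpiSC against 101, 94.2 and 61.5 TPM in 2D EpiSC (log2 fold change -2.46, SE 0.23, adjusted p = 1.61e-05). Nid2, a nidogen that links laminin and collagen IV, fell from 115, 112 and 122 TPM to 26.7, 28.8 and 28.7 TPM (log2 fold change -2.01, SE 0.19, adjusted p = 2.00e-05). Sparc, a collagen-binding protein, fell from 411, 413 and 420.0 TPM to 110.5, 146 and 149 TPM (log2 fold change -1.62, SE 0.14, adjusted p = 8.40e-06). The collagen IV chains Col4a1 and Col4a2, perlecan (Hspg2), Tinagl1, Nid1, Lama1, Lamb3 and Col18a1 were lower too. Some widely expressed laminin chains were not called. Lamc1 was at 101, 101 and 101 TPM and 154, 148 and 158 TPM. Lamb1 was at 80.8, 84.6 and 84.3 TPM and 122, 119 and 107 TPM. Both 3D cultures were embedded in Matrigel, which is itself basement membrane material, and its part in these results was not tested. In the ESC-derived 3D EpiSC, Fn1 was at 18, 17 and 29.5 TPM and Sparc at 145, 147 and 113 TPM. The count of lower members was 11 to 14 without any 1 library and 11 with the pairs averaged. With the pairs averaged, Col4a1 and Lamb3 lost their calls (adjusted p = 0.0533 and 0.074), while a further member gained one. Lamb3 was also lost without replicate 1 of the 2D EpiSC (adjusted p = 0.0547).

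Junction and keratin genes completed this pattern. Of 18 tested cadherins, claudins and desmosomal genes, 8 were lower, and of 9 keratins and intermediate filament genes 5 were lower, with no gene of either list higher. The junction count was 7 with the pairs averaged and, with the filter recomputed, 5 without replicate 1 of the 2D EpiSC. The tight junction protein Cldn4 was at 2.02, 2.39 and 2.56 TPM against 58, 50.6 and 59.2 TPM in 2D EpiSC (log2 fold change -4.10, SE 0.18, adjusted p = 7.47e-08), and Cldn3 at 3.56, 3.78 and 3.73 TPM against 27.7, 23.8 and 18.9 TPM. Keratin 19, Krt19, was at 10.1, 4.66 and 3.58 TPM in the embryo-derived cells and 125, 124 and 133 TPM in 2D EpiSC (log2 fold change -4.28, SE 0.39, adjusted p = 1.42e-05). The keratin pair of simple epithelia, Krt8 and Krt18, had log2 fold changes of -2.06 and -1.48. Desmoplakin, Dsp, which anchors keratins at desmosomes, fell from 71.2, 74.5 and 75.1 TPM to 20.2, 15 and 15.7 TPM (adjusted p = 6.98e-05). The epithelial cadherin Cdh1 itself was not called (log2 fold change -0.54). Of 25 apical polarity and lumen genes, 3 were lower (12%, near the 7.73% of all genes tested), namely Pard6g, Cgn and Podxl. The lumenal sialomucin Podxl was at 76, 55.9 and 54.9 TPM against 188, 187 and 153 TPM. Of 10 integrins, Itgb4, Itgb8 and Itga3 were lower, a count that was 1 after rescaling of the libraries. Itgb8 lost its call without replicate 1 of the embryo-derived cells (log2 fold change -0.79) and Itga3 without replicate 3 of the 2D EpiSC (-0.94). With the filter recomputed, the integrin count was 1 without replicate 1 or 2 of the 2D EpiSC and 0 without replicate 3. S100a6, a calcium-binding protein and one of the 12 largest decreases among protein-coding genes whose groups did not overlap, was at 4.32, 1.75 and 1.52 TPM against 75.2, 76.9 and 95.3 TPM. Among 8 tested fibroblast markers 5 were lower (2 without any 1 of the 2D libraries when the filter was recomputed) and Pdgfra was higher, and the part of fibroblast-like cells in these results was not tested.

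**Figure D3:**
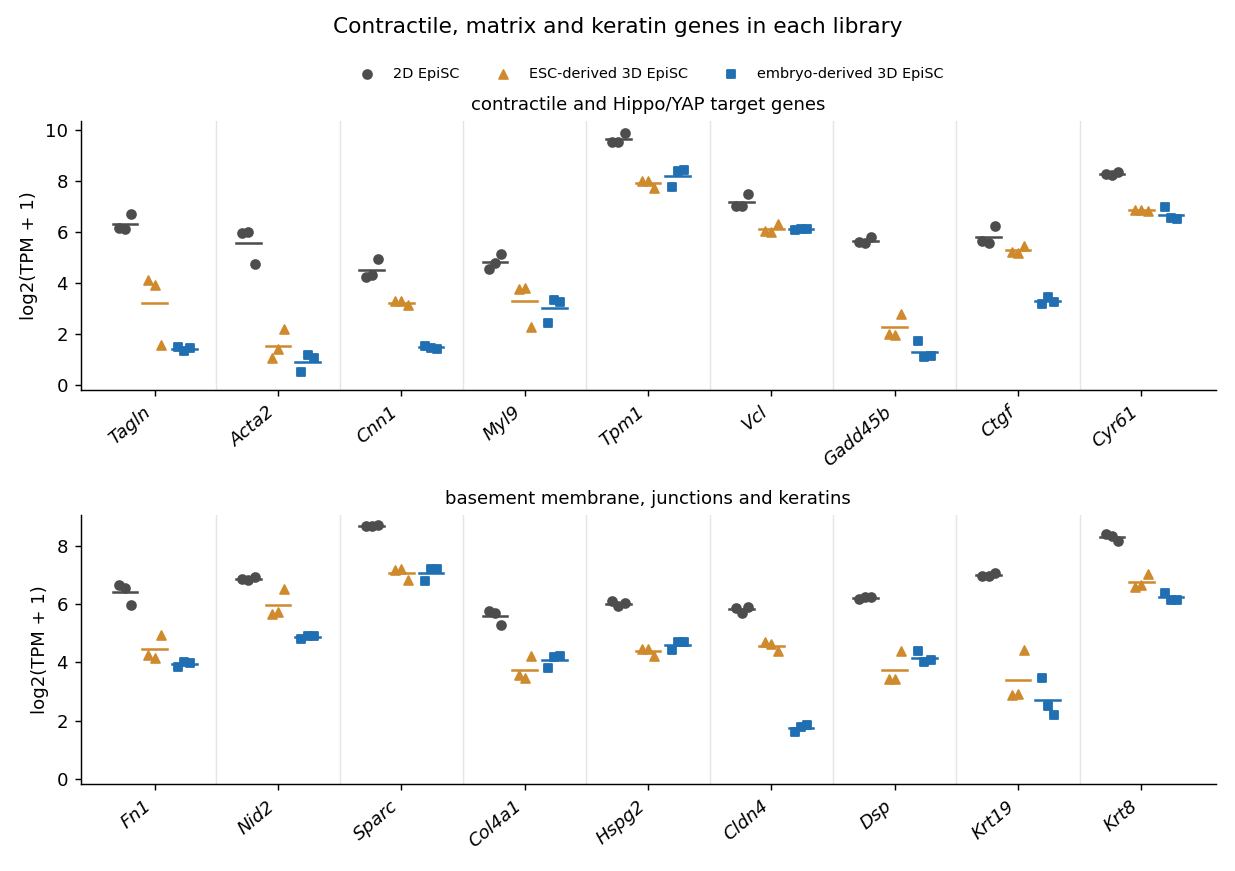
Expression, as log2(TPM + 1), of contractile genes and Hippo/YAP targets (top) and of basement membrane, junction and keratin genes (bottom). Symbols, bars and replicate order are those of the plot of stress-response genes. The 2D EpiSC lie above the embryo-derived 3D EpiSC for every gene drawn, and the ESC-derived 3D EpiSC lie near the embryo-derived cells for Acta2, Cyr61 and Sparc and above all of them for Cnn1, Ctgf and Cldn4.

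Core pluripotency genes mostly stayed under the fold threshold, with a median log2 fold change of 0.28. Of 11 tested, only Foxd3, a repressor active in primed cells, was called, at 48.7, 55.8 and 53.1 TPM against 23, 20.1 and 20.5 TPM (log2 fold change 1.27, SE 0.24, adjusted p = 0.00246). Nanog was at 240.1, 176 and 183 TPM in the embryo-derived cells and 92.7, 89.5 and 131 TPM in 2D EpiSC, and the Nodal co-receptor Tdgf1 at 616, 418 and 419 TPM and 205, 209 and 334 TPM. Both lay just under the fold threshold (log2 fold changes 0.94 and 0.97) and passed it after rescaling of the libraries, at 1.00 and 1.03, which raised the count to 3 of 11. It was also 3 without replicate 2 of the embryo-derived cells or replicate 3 of the 2D EpiSC, and 2 without replicate 3 of the embryo-derived cells. Pou5f1 and Sox2 had log2 fold changes of 0.36 and 0.30, and Sall4, Lin28a, Lin28b, Trim28, Utf1 and Zfp281 lay between -0.18 and 0.28.

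Genes of the naive and formative states gave a mixed picture. Of 18 naive genes only 5 passed the filter, and Prdm14 was listed at 0 in all 6 libraries. Klf2, a factor of naive ESC, was at 14.8, 8.89 and 9.42 TPM in embryo-derived 3D EpiSC and 2.05, 1.35 and 0.97 TPM in 2D EpiSC (log2 fold change 2.28, SE 0.23, adjusted p = 3.52e-05), and Klf4 at 23.3, 13.7 and 14 TPM against 3.65, 3.5 and 3.48 TPM (log2 fold change 1.95, adjusted p = 2.53e-05). Klf5 went the other way, at 8.57, 9.61 and 8.51 TPM against 19.2, 19.3 and 23.5 TPM (log2 fold change -1.13, adjusted p = 4.21e-04). Klf2 and Klf4 were also high in the ESC-derived 3D EpiSC, at 8.61, 8.1 and 11.8 TPM and 15, 13.8 and 20.6 TPM. Fgf4 and Zfp57 were tested and not called. In the formative and primed list, 1 of 15 was higher (Lefty1, an inhibitor of Nodal, whose call is limited below) and 1 lower (Sox4), against none and 2 with the pairs averaged. Each was 6.67% of the list, against 2.23% higher and 7.73% lower among all genes tested. Sox4 was at 34.2, 46 and 46.6 TPM against 116, 110.3 and 96.5 TPM (log2 fold change -1.33). The primed factor Otx2 was at 189.5, 177 and 189.6 TPM and 330.0, 290.1 and 309.9 TPM, and the POU factor Pou3f1 at 28.5, 34.2 and 35.4 TPM and 66.5, 61.8 and 69.3 TPM, both lower in every embryo-derived library but under the fold threshold (log2 fold changes -0.74 and -0.99). The de novo methyltransferase Dnmt3b was at 918, 912 and 914 TPM and 954, 930.2 and 869 TPM. None of these 3 was called, nor were Grhl2, Tcf15, Cdh2, Fgf5, Sfrp2, Zic5, Dnmt3a, Zic2, Nodal and Dusp6, whose log2 fold changes ran from -0.97 to 0.87. Among 11 tested genes of DNA methylation and demethylation none was called.

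Primitive streak genes were higher in part. Of 12 tested genes of the streak and early mesoderm, 5 were higher (41.7%), with a median of 0.61. The Notch ligand Dll1 alone was lower, a share (8.33%) near the 7.73% of all genes tested. Dll1 lost its call with the pairs averaged and without replicate 3 of the embryo-derived cells or replicate 1 or 2 of the 2D EpiSC (log2 fold changes -0.94 to -0.92). Wnt3, the ligand that starts streak formation, was at 40.1, 23.4 and 23 TPM in embryo-derived 3D EpiSC and 7.49, 6.35 and 8.94 TPM in 2D EpiSC (log2 fold change 1.76, SE 0.23, adjusted p = 2.24e-04). Fgf8, a streak ligand, was at 226, 169.7 and 167 TPM against 59.4, 60.2 and 75.9 TPM (adjusted p = 0.00202). The mesendoderm factor Mixl1 was at 23.5, 16.3 and 16.9 TPM against 4.64, 5.07 and 10.1 TPM (adjusted p = 0.00388), and Nkx1-2 and Pdgfra were also higher. All 3 genes were highest in replicate 1 of the embryo-derived cells. The central streak factor T (Brachyury) was not called, at 54.6, 21.4 and 22 TPM and 37.5, 34.8 and 24.1 TPM with overlapping groups, and neither was Eomes at 116, 59.3 and 58.1 TPM and 51, 50.9 and 48.4 TPM. In the ESC-derived 3D EpiSC, Fgf8 was at 100.3, 104 and 47.5 TPM and Mixl1 at 3.16, 2.61 and 5.61 TPM, and the difference of Mixl1 from the embryo-derived cells was 2.09 on the log2 scale (adjusted p = 0.00111).

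Definitive endoderm and axial genes split. Of 15 tested, Chrd and Foxa2 were higher and 6 were lower, with a median of -1.32. The lower members numbered 4 with the pairs averaged and 4 to 6 without any 1 library. With the filter recomputed they were 1 without replicate 1 or 2 of the 2D EpiSC and 2 without replicate 3. Chordin, Chrd, a secreted BMP antagonist of the node, was at 61.1, 38.9 and 37.8 TPM in the embryo-derived cells against 10.3, 9.27 and 8.23 TPM in 2D EpiSC and 7.3, 6.88 and 17.4 TPM in ESC-derived 3D EpiSC (log2 fold change against 2D 2.16, SE 0.29, adjusted p = 2.37e-04). Foxa2 was at 123, 50.1 and 50.6 TPM against 33, 30.4 and 24.6 TPM, with replicate 1 well above the other embryo-derived libraries. Its call was lost without that library (log2 fold change 0.77) or without replicate 3 of the 2D EpiSC (adjusted p = 0.058). On the lower side, the endoderm factor Gata4 was at 0.676, 0.309 and 0.652 TPM against 10.6, 10.3 and 3.9 TPM (log2 fold change -2.49, adjusted p = 8.61e-05), Sox17 at 3.68, 7.21 and 10.7 TPM against 26.1, 24.3 and 24.7 TPM (adjusted p = 0.0364) and the chemokine receptor Cxcr4 at 4.68, 17 and 16.1 TPM against 67.7, 65.1 and 52.6 TPM (adjusted p = 0.0203). The calls of Sox17 and Cxcr4 were lost with the pairs averaged (adjusted p = 0.0963 and 0.065). They were also lost without single libraries, Sox17 without any 1 other than replicate 3 of the embryo-derived cells (adjusted p = 0.078 to 0.117) and Cxcr4 without replicate 1 of the embryo-derived cells or replicate 1 or 2 of the 2D EpiSC (0.0582 to 0.0709). Cer1, Lhx1, Gata6, Hhex and Foxa1 had negative log2 fold changes that were not called. The visceral endoderm markers Spink1, Lrp2 and Apoe, 3 of 5 tested, were lower in the embryo-derived cells beside these genes, and the part of such cells was not tested. Of 15 neuroectoderm and neuron genes, 8 were lower, led by Penk, Irx3, Dpysl3, Irx5 and the anterior neural factor Hesx1, and none was higher. Hesx1 lost its call with the pairs averaged, which left 7, and without replicate 1 of the embryo-derived cells or replicate 1 or 2 of the 2D EpiSC (adjusted p = 0.0878 to 0.101 without 1 library). With the filter recomputed, 3 or 4 of the neural genes were lower without a 2D library.

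**Figure D4:**
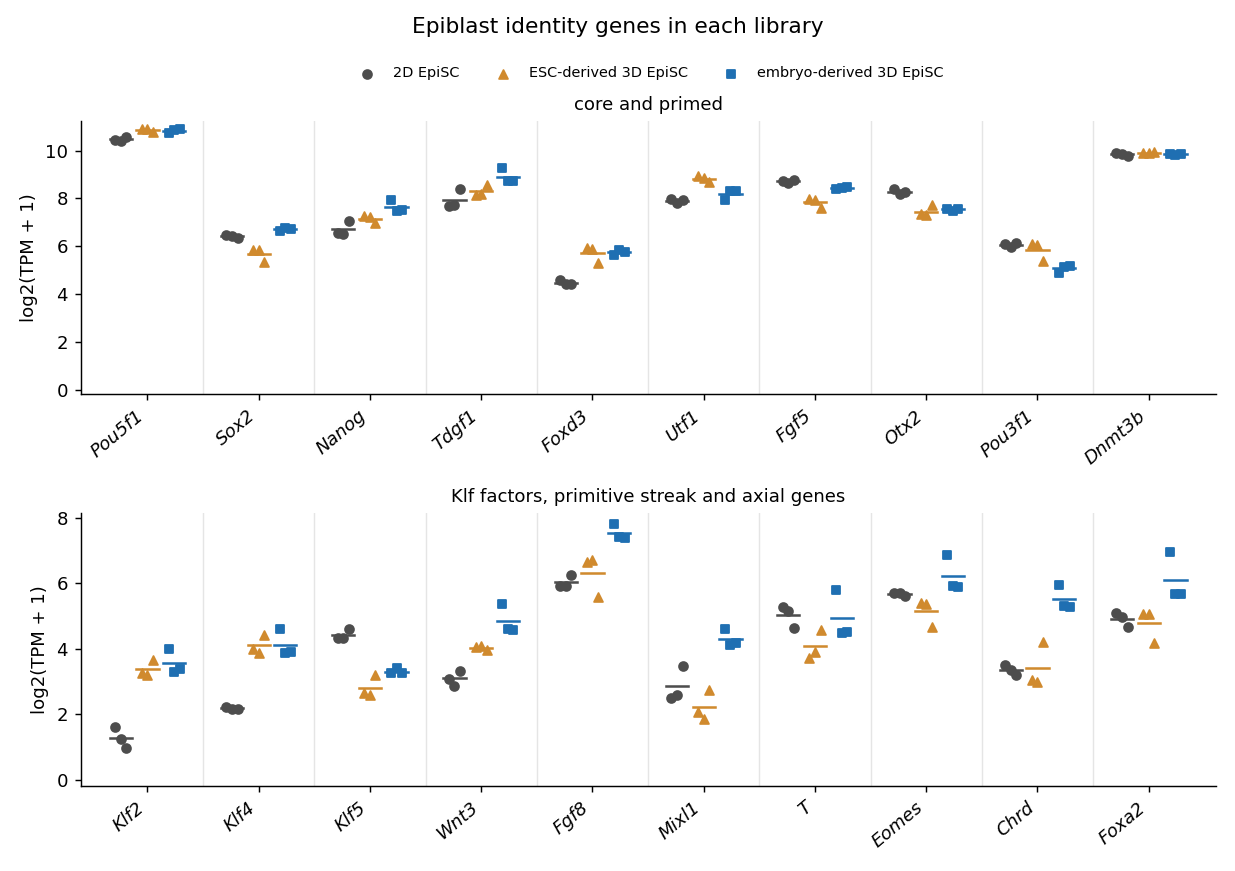
Expression, as log2(TPM + 1), of core and primed pluripotency genes (top) and of Klf factors, primitive streak and axial genes (bottom). Symbols, bars and replicate order are those of the plot of stress-response genes. Pou5f1, Sox2, Fgf5 and Dnmt3b lie close together in all groups, Klf2 and Klf4 are higher in both 3D groups than in 2D EpiSC, and Chrd and Mixl1 are higher in the embryo-derived cells than in both others.

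Signalling lists were read by their ligands, antagonists and targets. Canonical Wnt signalling is the pathway that the XAV939 in the FAXN medium inhibits. Among its 18 tested targets, Ccnd2, Wnt3 and Lef1 were higher (16.7%, against 2.23% of all genes tested). Cyp26a1 and Rnf43 were lower (11.1%, near the 7.73% of all genes tested). The call of Rnf43 was lost without replicate 2 of the embryo-derived cells (-0.92). With the pairs averaged none was lower: Cyp26a1 had an adjusted p of 0.0585 (log2 fold change -2.43) and Rnf43 a log2 fold change of -0.96. Lef1, a Wnt target and effector, was at 43.9, 36.8 and 37.2 TPM against 13.7, 14.7 and 14.7 TPM (log2 fold change 1.39, SE 0.11, adjusted p = 4.40e-06). Axin2, the most general readout of this pathway, was at 19.3, 10.7 and 9.82 TPM in the embryo-derived cells and 7.09, 6.49 and 7.11 TPM in 2D EpiSC, a log2 fold change of 0.79 that did not pass the fold threshold. Among 12 Wnt ligands and antagonists, Wnt3 and Wnt5b were higher (16.7%) and Sfrp5, Sfrp1, Wnt4 and Wnt7b lower (33.3%). Only 1 was lower without any 1 of the 2D libraries when the filter was recomputed. Sfrp5, a secreted antagonist, had the largest change of these, at 0.0335, 0.69 and 0.27 TPM against 47.3, 48.2 and 16.8 TPM (log2 fold change -4.74, adjusted p = 6.34e-05).

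In the BMP list, where the FAXN medium adds the antagonist Noggin, the target Id1 was at 21.4, 15.6 and 16.4 TPM against 84.8, 89.5 and 41.8 TPM (log2 fold change -1.90, SE 0.31, adjusted p = 8.88e-04). Id2, Gata3 and endogenous Nog were lower too, and Smad7 and Chrd were higher among the 12 tested, which gave 33.3% lower and 16.7% higher. The lower count of 4 was 3 with the pairs averaged and 2 or 3 without a 2D library when the filter was recomputed. Id3 and Bmp4 were not called. Of 22 genes of the Nodal and Activin pathway, Mixl1, Smad7, Lefty1 and Pmepa1 were higher (18.2%, against 2.23% of all genes tested). Cfc1 and Lefty2 were lower (9.09%, near the 7.73% of all genes tested). The related Nodal antagonists thus moved apart. Lefty1 was at 364, 558 and 551 TPM against 219.8, 216 and 245 TPM and Lefty2 at 17.1, 22 and 22 TPM against 53.1, 56.4 and 77.4 TPM. With the pairs averaged, Lefty1, Pmepa1 and Cfc1 lost their calls. Lefty1 was also lost without replicate 2 or 3 of the embryo-derived cells (0.98 and 0.99), Pmepa1 without replicate 3 of them or replicate 1 of the 2D EpiSC (0.99 and 0.86), and Cfc1 without replicate 1 or 3 of them or replicate 1 or 2 of the 2D EpiSC (adjusted p = 0.0718 to 0.0802). Among 24 FGF and ERK genes, Fgf8 was higher (4.17%) and Phlda1, Fgf10, Fgfr2, Fgfr3 and Dusp5 lower (20.8%). Dusp5 was not called without replicate 3 of the embryo-derived cells. With the filter recomputed, 3 were lower without any 1 of the 2D libraries. The receptor Fgfr2 was at 5.61, 5.91 and 5.59 TPM against 28.8, 30.4 and 25.1 TPM (log2 fold change -2.11, adjusted p = 5.10e-04). Of 20 immediate early genes, Fos and Fosb were higher (10%) and 8 were lower (40%). The lower count was 5 without replicate 2 or 3 of the embryo-derived cells and 3 with the pairs averaged. It was 4 to 6 without a 2D library when the filter was recomputed. Fosb was at 476, 131 and 129 TPM against 28.2, 26.9 and 15.5 TPM (log2 fold change 3.08, SE 0.57, adjusted p = 0.00194), with replicate 1 far above the other 2, and Fos at 453, 199 and 201 TPM against 64.9, 58.6 and 37.4 TPM. Arc, a further member of this list, was at 0.516, 0.695 and 0.705 TPM against 20.5, 20.6 and 20 TPM (log2 fold change -3.71, SE 0.11, adjusted p = 2.16e-09).

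Metabolic genes were lower in part. Glucose transporters changed most: Slc2a1 was at 238, 123 and 110.0 TPM against 864, 838 and 775 TPM in 2D EpiSC (log2 fold change -2.47, SE 0.29, adjusted p = 9.47e-05), and Slc2a3 at 153, 162 and 207 TPM against 961, 917 and 1034 TPM (log2 fold change -2.48, SE 0.27, adjusted p = 5.39e-05). Of 20 glycolysis genes 6 were lower and none higher, with a median of -0.68, but the abundant enzymes Gapdh, Pkm and Eno1 had log2 fold changes of -0.45, -0.46 and -0.63. The glycolysis count was 4 to 9 without 1 library and 3 with the pairs averaged, where Aldoc (adjusted p = 0.0795), Pfkp (0.145) and Slc16a1 (log2 fold change -0.96) lost their calls. Hypoxia genes had a median of -1.01, with 7 of 21 lower and none higher. The glycolytic regulator Pfkfb3, an Hif target, was at 30.6, 7.23 and 7.08 TPM against 64, 61.8 and 65.5 TPM (adjusted p = 0.00628, 0.0673 with the pairs averaged), and the mitophagy receptor Bnip3 at 173, 51.6 and 53.4 TPM against 242, 247 and 231 TPM (adjusted p = 0.0404). In both, replicate 1 of the embryo-derived cells lay above the other 2. Without that replicate 11 hypoxia genes were lower, without any 1 of the other 5 libraries 4 were, and with the pairs averaged 2 were. Bnip3 was among those lost without any 1 of the other 5 (adjusted p = 0.0844 to 0.14). Ndrg1, induced by hypoxia, was at 80.3, 17.8 and 17.8 TPM and 26.9, 23.7 and 32.2 TPM, with overlapping groups. Of 26 cholesterol genes 6 were lower (10 without replicate 1 of the embryo-derived cells, 4 without replicate 2 or 3 of them, and 4 with the pairs averaged). Hmgcs1, an early enzyme of cholesterol synthesis, was at 650.3, 344 and 339 TPM against 965, 976 and 1072 TPM in 2D EpiSC (log2 fold change -1.24, adjusted p = 0.00574, 0.065 with the pairs averaged).

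A group of genes was at or near 0 in the embryo-derived 3D EpiSC and expressed in both EpiSC groups made from ESC. Values in epiblast-like cells (EpiLC, 3 libraries), a further culture made from ESC, are given after them. Penk, the enkephalin precursor and the largest decrease among protein-coding genes, was at 0.0808, 0.362 and 0.654 TPM in the embryo-derived cells, 101, 101 and 123 TPM in 2D EpiSC and 58.2, 59.3 and 85.5 TPM in ESC-derived 3D EpiSC (log2 fold change against 2D -6.34, SE 0.19, adjusted p = 3.14e-09). Nnat, an imprinted gene expressed from the paternal allele, was at 0.839, 1.34 and 1.78 TPM against 104, 99.6 and 96.7 TPM and 158, 159.5 and 62.6 TPM (log2 fold change against 2D -5.46, SE 0.31, adjusted p = 4.00e-07). Apobec3, a cytidine deaminase that restricts retroviruses, was at 0.0849, 0.25 and 0.0928 TPM against 46.3, 48.2 and 45.9 TPM and 26.7, 27.9 and 25.5 TPM. Each differed from the ESC-derived 3D EpiSC by the same test, with log2 differences of -5.65, -5.68 and -4.60 (adjusted p = 9.65e-09, 4.75e-07 and 1.81e-10). Trim25, a ubiquitin ligase of antiviral signalling, was listed at 0 in all 3 embryo-derived libraries and stood at 26.3, 24.1 and 28.9 TPM in 2D EpiSC and 11.8, 11.2 and 16.6 TPM in ESC-derived 3D EpiSC. The lysosomal protease Ctsc was also lowest in the embryo-derived cells, at 0.51, 1.46 and 1.26 TPM, 34.5, 36.8 and 34.7 TPM and 25.1, 26.6 and 36.4 TPM. Nptx2, a synaptic pentraxin, was at 0.0974, 0.114 and 0.486 TPM, 35.1, 32.1 and 16.4 TPM and 7.99, 8.72 and 10.3 TPM. In EpiLC, Penk was low as well, at 2.57, 1.82 and 2.74 TPM. Nnat was at 63.1, 51.7 and 42 TPM, Apobec3 at 116, 141 and 129 TPM and Trim25 at 63.1, 65.2 and 65.3 TPM in the EpiLC libraries. Ctsc was at 13.3, 18.9 and 13.4 TPM and Nptx2 at 21.4, 16 and 16.6 TPM there. These 5 genes were thus expressed in all 3 EpiLC libraries, and Penk stood apart from them.

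By a fixed limit of TPM below 0.5 in all 3 libraries of one group and above 5 in all 3 of the other, 17 genes were on in 2D EpiSC only and 3 in embryo-derived 3D EpiSC only. In the ESC-derived 3D libraries, 9 of the 17 were above 5 TPM throughout. The other 8 were neither above 5 TPM in all 3 libraries nor below 0.5 TPM in all 3. The 17 included Apobec3, Trim25, Gpx3, Cdcp1, A230050P20Rik, Crym and Ripk3. Gpx3, a secreted glutathione peroxidase, was at 0.315, 0.0914 and 0 TPM in the embryo-derived cells, 11.5, 11.4 and 16.7 TPM in 2D EpiSC and 17.6, 15.9 and 14.2 TPM in ESC-derived 3D EpiSC. Crym, a thyroid hormone binding protein, was listed at 0 in the 3 embryo-derived libraries against 6.29, 8.09 and 6.33 TPM in 2D EpiSC. By contrast Anxa1 and Tuba8, which belong to the same 17, were low in both 3D groups, at 0.3, 0.0716 and 0.108 TPM and 0.362, 0.72 and 0.2 TPM for the annexin Anxa1 against 8.81, 8.3 and 6.8 TPM in 2D EpiSC. The reverse was rarer: AL732309.1, an annotated protein-coding gene on chromosome 2, was at 10.4, 8.85 and 8.45 TPM against 0.247, 0.166 and 0.115 TPM and was likewise on in the ESC-derived 3D EpiSC, at 9.45, 7.86 and 8.08 TPM.

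**Figure D5:**
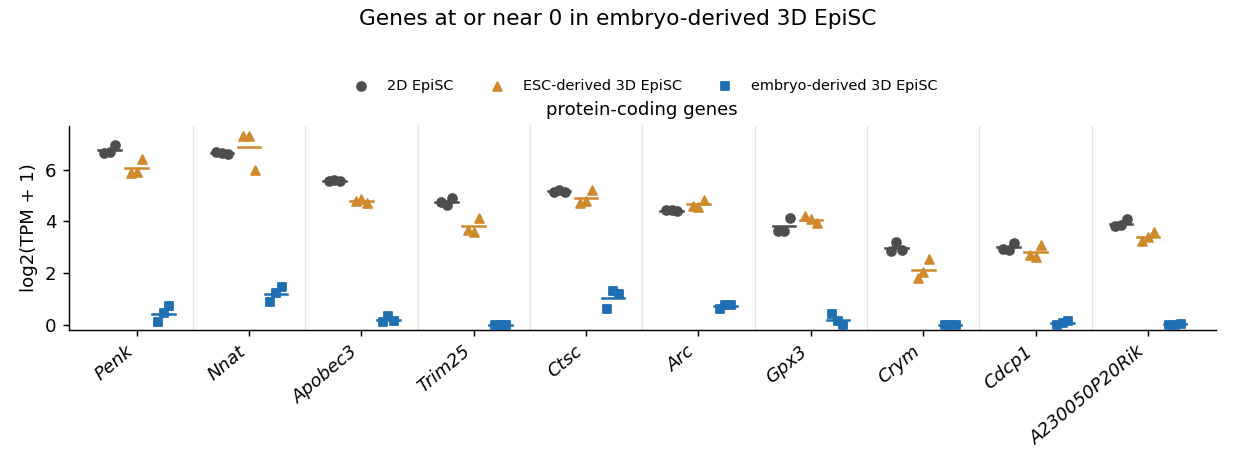
Expression, as log2(TPM + 1), of 10 protein-coding genes that were low in embryo-derived 3D EpiSC and expressed in both EpiSC groups made from ESC. They were picked for this pattern from the genes named in the text, and symbols, bars and replicate order are those of the plot of stress-response genes. For each gene, all embryo-derived libraries lie below all libraries of both other groups.

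Nnat was 1 of 12 lower genes among 38 tested imprinted genes, with none higher and a median of -0.56. H19, the maternally expressed RNA next to Igf2, was at 0.351, 0.409 and 0.32 TPM against 21.6, 20.5 and 11.2 TPM (log2 fold change -3.74, SE 0.36, adjusted p = 2.03e-05), and Igf2 at 6.94, 8.25 and 7.86 TPM against 39.6, 37.4 and 21 TPM. Peg10 and Peg3, both paternally expressed, fell from 183, 175 and 108 TPM to 15.5, 19.7 and 20.7 TPM and from 184, 185 and 147 TPM to 54.7, 56.7 and 57 TPM. Slc38a4, Impact, Sgce, Zdbf2, Mest, Plagl1 and Usp29 were also lower. Unlike Nnat, Peg10 was low in the ESC-derived 3D EpiSC too, at 19.4, 18.5 and 32.1 TPM, whereas Impact stood at 171, 162 and 137 TPM there, close to the 142, 146 and 179 TPM of 2D EpiSC and above the 63.4, 45.9 and 45.9 TPM of the embryo-derived cells. Other imprinted genes did not differ beyond the threshold, among them Cdkn1c at 21, 22.9 and 21.6 TPM and 20.9, 20.4 and 22.4 TPM and Snrpn at 332, 382 and 390.2 TPM and 406, 403 and 443 TPM. The number of lower genes was 11 with the pairs averaged and 12 whichever library was left out, although the call of Mest was lost without replicate 1 of the embryo-derived cells (log2 fold change -0.86).

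Immune genes showed a similar direction. Of 22 tested MHC class I and interferon genes, 9 were lower and none higher, a count of 5 without replicate 3 of the 2D EpiSC, 6 without replicate 2 or 3 of the embryo-derived cells and 11 without their replicate 1. It was 7 with the pairs averaged and, with the filter recomputed, 5 without replicate 1 or 2 of the 2D EpiSC and 2 without replicate 3. Besides Apobec3, the membrane proteins Ifitm3 and Bst2, which restrict viral entry and release, were lower. Ifitm3 was at 7.95, 6.67 and 4.03 TPM in the embryo-derived cells, 41.2, 48.1 and 42.5 TPM in 2D EpiSC and 36.3, 42.4 and 29.6 TPM in ESC-derived 3D EpiSC (log2 fold change against 2D -2.67, adjusted p = 3.34e-06). Bst2 was at 11.4, 16.8 and 18.8 TPM, 78.5, 72.9 and 75.4 TPM and 53.9, 51.8 and 87.9 TPM in the same order (log2 fold change -2.23, adjusted p = 7.54e-05). For both, the embryo-derived cells lay below every library of the other groups. The immunoproteasome subunit Psmb8 was at 1.96, 1.41 and 1.29 TPM against 6.5, 6.7 and 8.32 TPM and was low in the ESC-derived 3D EpiSC as well, at 2.19, 2.25 and 2.1 TPM.

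The remaining lists are given by their counts. Of 43 axon guidance genes 10 (23.3%, against 7.73% of all genes) were lower and none higher, led by Slit1 and Sema3e, with a median of -0.36. This count was 9 with the pairs averaged and 6 without any 1 of the 2D libraries when the filter was recomputed. The heat shock list had 3 lower of 12, led by the small heat shock protein Hspb1, at 12.3, 13.9 and 13 TPM against 134, 126 and 148 TPM (log2 fold change -3.28). Among the rest, 3 of 14 Notch genes (21.4%), 2 of 9 retinoic acid genes (22.2%) and 2 of 7 trophoblast markers (28.6%) were lower and none higher. So were 2 of 17 p53 targets (11.8%) and 1 of 15 fatty acid genes (6.67%), shares near the 7.73% of all genes, with none higher. With the pairs averaged, 1 retinoic acid gene, 3 p53 targets and no fatty acid gene were lower. With the filter recomputed, no trophoblast marker was lower without any 1 of the 2D libraries and 1 Notch gene was lower without replicate 1 or 2 of them. In the iron and metal list Mt1, Mt2 and Slc40a1 were lower (25%) and Ftl1 higher among 12. In the antioxidant list of 16, Nqo1 was lower (6.25%, near the 7.73% of all genes) and Ftl1 and Slc7a11 higher. The call of Ftl1 is uncertain, as its family below shows. Among 14 regulators of epithelial-mesenchymal transition Mmp2, Twist1 and Esrp2 were lower and Zeb1 higher. Of the members of these lists, Mt2, Esrp2 and Zeb1 lost their calls without some of the libraries, and all 3 also with the pairs averaged. Mt2 had an adjusted p of 0.131 to 0.142 without replicate 2 or 3 of the embryo-derived cells or replicate 1 or 2 of the 2D EpiSC. Without the same 4 libraries in turn, the log2 fold changes were -0.99 to -0.88 for Esrp2 and 0.96 to 0.98 for Zeb1. With the filter recomputed, 1 transition regulator was lower without replicate 1 or 2 of the 2D EpiSC. No Hox gene and 2 of 30 methylation-repressed germline genes passed the filter, and those 2 were not called.

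Pseudogenes made up much of the higher group. Processed pseudogenes, which are copies of spliced mRNA and can share reads with their parent gene, contributed 137 of the 280 higher genes. Of 978 processed pseudogenes tested, 14.0% were higher and 7.36% lower, against 1.07% and 7.65% of protein-coding genes. The copies of Rps15a, a ribosomal protein gene, were an example. All 7 tested copies were called higher, and the 8 copies in the file summed to 307, 479.6 and 440.4 TPM in the embryo-derived libraries and 50.5, 64.9 and 60.2 TPM in 2D EpiSC. Rps15a itself was at 359, 364 and 323 TPM and 471, 206 and 213 TPM and was not called. In the ESC-derived 3D EpiSC, the copies summed to 62.1, 75.5 and 63 TPM, near the 2D level.

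The ferritin light chain family behaved in the opposite way. Ftl1, which stores iron, was called higher at 2528, 2304 and 2360 TPM against 725, 710.0 and 823 TPM (log2 fold change 1.67, SE 0.13, adjusted p = 4.30e-06). Its 3 copies Ftl1-ps1, Ftl1-ps2 and Ftl2-ps were all called lower, and together they summed to 240.2, 202 and 231 TPM in the embryo-derived cells and 2163, 1932 and 2309 TPM in 2D EpiSC. The sum over all 4 was 2768, 2505 and 2591 TPM and 2888, 2642 and 3133 TPM, with overlapping groups, so the call of Ftl1 did not hold for the family and is uncertain. In the ESC-derived 3D EpiSC, Ftl1 was at 781, 838 and 804 TPM and its copies summed to 2406, 2403 and 2363 TPM, near the 2D levels. The families were examined after their values had been seen. The miRNA loci Mir692-2 and Mir692-3, which were also called lower, lie within Ftl2-ps and Ftl1-ps1 on the same strand, and reads of the loci and the copies cannot be told apart here.

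By its median fold change, no autosome stood apart. The share of genes called lower ran from 5.87% on chromosome 19 to 11.7% on chromosome 18. The share called higher ran from 1.19% on chromosome 17 to 3.37% on chromosome 6. The median log2 fold change of the genes on a chromosome ran from -0.09 to -0.01 over the 19 autosomes, around the median of -0.06 for all genes.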

How the data were processed

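Stranded poly-A RNA-seq libraries were analysed from a table of gene-level TPM values that the authors deposited. The authors made these TPM with StringTie from STAR alignments to mm10, after adapter removal by cutadapt 2.4 and with the GENCODE VM19 annotation. Each library sums to 1000000 TPM, so a gene's value depends on all others, and counts and depth cannot be recovered. Of 27 value columns 12 were used (embryo-derived 3D EpiSC, ESC-derived 3D EpiSC, 2D EpiSC and EpiLC, 3 libraries each). The other 15, of in vivo tissue made with another kit, were not used here. Single-cell and methylation samples of the series were also not used here.

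Samples were grouped by their labels. Lines of 1 gene ID were summed, and for Aldoa, listed under more than 1 ID, the ID with the higher mean was taken. Autosomal genes exceeding 2 TPM in 3 or more of the 6 compared libraries were tested as log2(TPM + 1) in limma 3.58.1 (R 4.3.3), with all 12 libraries in the fit, group as the only term, and adjusted p-values by the Benjamini-Hochberg method over all genes tested. Calls needed a log2 fold change over 1 in size with an adjusted p under 0.05. The procedure was tested on simulated data. Tables and figures were made with Python 3.11.15, numpy 2.4.6, pandas 2.3.3 and matplotlib 3.10.9. Promoters were those of RefSeq on GRCm38.p6, the assembly behind mm10.

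The compared groups and the gene lists were chosen with earlier results of these data known. Genes named were the 12 largest changes in each direction among protein-coding genes whose groups did not overlap, up to 6 called members of each list in each direction, members needed to say what was measured and not called, and the pluripotency lists. Remaining called list members, the ferritin and Rps15a copies, and the genes on in 1 group only beyond these were named after their values were seen. Alternatives were a pseudocount of 0.1, no filter, a filter over 12 libraries, protein-coding genes only, median-of-ratios rescaling, a fit of the 6 libraries alone, an intensity trend in the variance, a block for the replicate number, averaging of near-identical libraries, and leaving out each library. A few results are not reported here.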

Additional observations from a re-analysis of the deposited data

How the results depend on the processing

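No gene called either way changed direction under any alternative that tested it. The number of higher genes was 119 and that of lower genes 841 when only autosomal protein-coding genes were tested. Under the other changes of processing they lay between 239 and 326 and between 862 and 1143. Rescaling by median-of-ratios factors gave 307 higher and 862 lower genes, so that 26.26% of calls were higher against 22.42% without it. Leaving out 1 library gave 222 to 296 higher and 561 to 965 lower genes. The lowest of these, 561, 562 and 605, came without a 2D EpiSC library, where 351 of the lower genes could no longer reach the minimum of 3 libraries above the TPM limit and were not tested. With the genes as in the full set, an alternative chosen after seeing the data, the ranges were 251 to 327 higher and 905 to 966 lower.

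The labels give all groups the replicate numbers 1 to 3. Deviations of same-numbered libraries from their group means correlated at 0.05, 0.17 and -0.06, so the numbers were not taken as pairing. A fit with the replicate block called 279 genes higher and 964 lower, and among the named genes Bnip3 and Pdk1 lost their calls (adjusted p = 0.0673 and 0.0689). Averaging the near-identical libraries was the strictest change for named genes: 50 of 250 lost their calls. The 250 include members of the pluripotency lists that were not called and had no call to lose. TPM give no depth, so how far counting error limits low values is unknown.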
